A study of Mus musculus with 96 samples.

Results

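The 36 genes described here are the complement and coagulation factors that hepatocytes make and release into plasma, 18 of complement and 18 of coagulation. They were chosen by name from the 7394 genes measured on GeoMx, an assay in which probes bound to RNA in a tissue section release a sequence tag where ultraviolet light falls and the tags are counted by sequencing. Liver sections 5 µm thick came from 16 male mice in 4 groups of 4: HetKO HFD, HetKO LFD, Wt HFD and Wt LFD. HetKO mice carried a heterozygous knockout of Gaa, which encodes the lysosomal acid alpha-glucosidase. The allele came from LoxP sites placed around exons of Gaa, which disrupted the gene in the whole body from birth, and the line was crossed to C57BL/6 mice. HFD is a high-fat and LFD a low-fat diet, eaten freely for 15 weeks from about 8 weeks of age. Every mouse gave 3 areas of illumination (AOIs) of the perivenous zone, around the central vein, and 3 of the periportal zone, around the portal tract, picked by Cyp2e1 and E-cadherin staining, which gave 96 AOIs.

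Complement is a cascade of plasma proteases and binding proteins that coats microbes, recruits phagocytes and builds a pore, the membrane attack complex. Mannose-binding lectins, the C1 complex and spontaneous turnover of C3 start it by separate routes that meet at the cleavage of C3. Coagulation is a parallel cascade of proteases that ends when thrombin cuts fibrinogen into fibrin, with antithrombin and protein C as brakes and plasmin as the enzyme that dissolves the clot. Hepatocytes are the main source of most of these proteins, several of which are acute-phase proteins whose genes respond to interleukin-6. Hepatocytes near the portal tract receive blood that is richer in oxygen, and many secreted plasma proteins are known to be made there.

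Values are normalized counts, scaled until the third quartile was 60.2 in each AOI, and a mouse's value in a zone is the mean of its 3 AOIs. An AOI held 60874 to 1772443 deduplicated reads (median 536938). All 36 members were above the limit of quantitation (LOQ) of the assay in at least 10 of the 96 AOIs, as were 6805 genes in all, and these were tested. C8b and Pros1 were above the LOQ in 0 of 24 AOIs of the Wt HFD group, so their values there cannot be told from the background. Mbl1, Masp1, C1ra, C2, Cfb, C6, F7, F9, F11, Klkb1, F5 and F13b passed the LOQ there in at most 5 of 12 AOIs per zone. Their Wt HFD values thus lay mostly at background, which limits every comparison of these members that includes Wt HFD. C1s1 and C8a passed the LOQ in 4 and 5 of 12 perivenous AOIs of Wt HFD mice, so the same limit holds for their perivenous values there. Differences are log2 fold changes of value plus 1 from limma ± SE, and a change was called at a Benjamini-Hochberg adjusted p under 0.05 over all genes tested. C4b, C1ra, C1s1 and Kng1 have close paralogs, and the assay's separation from them was not examined.

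Gaa and the zone markers were examined first. On LFD, Gaa had 59.03, 51.8, 41.1 and 50.2 in the periportal zone of HetKO mice, against 70.96, 67.9, 80.4 and 74.5 in Wt mice, and the groups did not overlap in either zone. On HFD the values of Gaa overlapped, at 40.5, 56.3, 43.4 and 30.2 in the periportal zone of HetKO mice and 55.2, 45.7, 55.6 and 39.05 in that of Wt mice. Gaa was above the LOQ in 3 and 2 of 12 periportal AOIs of HetKO HFD and Wt HFD mice, against 11 and 12 of 12 in HetKO LFD and Wt LFD mice, so the HFD values lay mostly at background. The labelled genotype was thus visible in Gaa on LFD and could not be checked on HFD, and where the probe lies relative to the disrupted exons is not given in the sources used here. Cyp2e1 was 20.7, 24.1, 21.7 and 28.5-fold higher in the perivenous zone of HetKO HFD, HetKO LFD, Wt HFD and Wt LFD mice, and the periportal marker Cyp2f2 was lower there in each group. Cdh1, the gene of E-cadherin, was called lower in the perivenous zone in HetKO LFD (-1.18) and Wt LFD (-1.09) and not in the HFD groups.

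Mouse Wt HFD 1 stood apart from its group. Its percent of targets above the LOQ was 29.6% perivenous and 45.2% periportal, against 15.02 to 15.9% and 12.7 to 17.6% in the other 3 Wt HFD mice. The negative probe, which binds no mouse RNA, had 20.5 and 21.2 normalized counts in it, against 31.3 to 38.9 and 29.3 to 36.6 in the others. Because of this mouse, the comparisons that include Wt HFD are given with and without it where it changes a count by over 1.5 times. Sections from all LFD mice shared a slide set and those from all HFD mice another, so diet and slide cannot be told apart, while genotype and zone were compared within a slide set. Of the HetKO LFD mice, mouse 1 had 5 AOIs with another number in their library names, read here as another plate. Its mean sequencing saturation was 75.3% periportal and 66.6% perivenous. In the other HetKO LFD mice it was 89.3 to 90.9% and 89.6 to 90.5%.

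**Figure D1:**
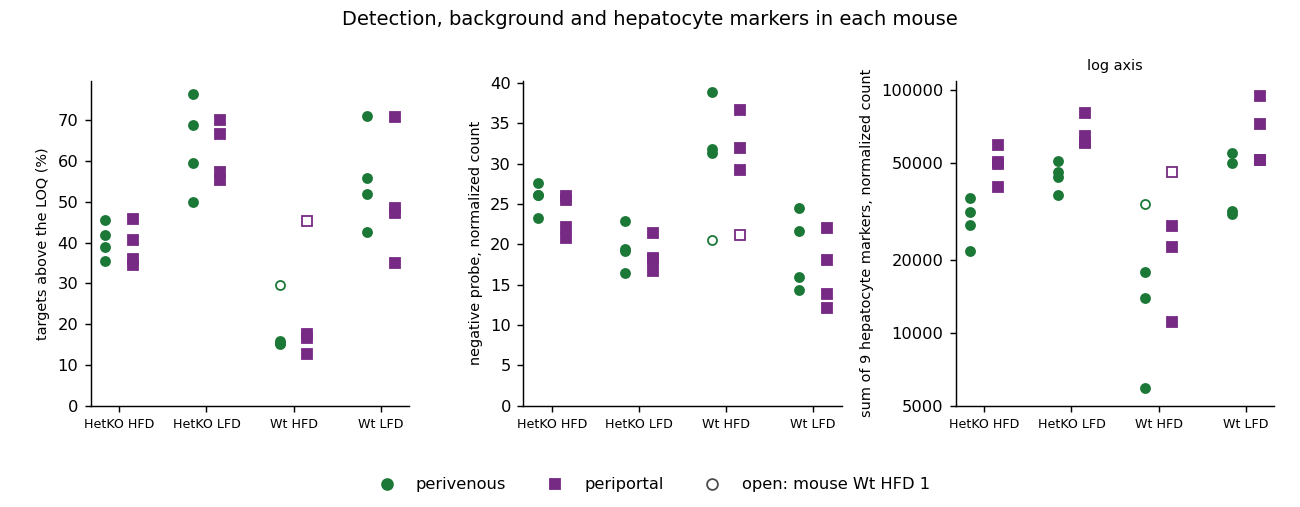
Percent of targets above the LOQ (left), normalized count of the negative probe (middle) and summed normalized count of 9 hepatocyte markers (right) in each mouse, by group and zone, with perivenous left of periportal. Open symbols mark mouse Wt HFD 1, which has the highest percent above the LOQ of the Wt HFD mice in both zones (29.6% perivenous and 45.2% periportal).

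The fibrinogen genes were lower in the perivenous zone in every group. Fga, Fgb and Fgg encode the 3 chains of fibrinogen, the soluble precursor of the fibrin clot, and lie side by side within chromosome 3. Fgb had 723, 472, 583 and 548 in the perivenous zone of HetKO HFD mice 1 to 4, against 1399, 952, 1136 and 1188 in their periportal zone. Fga had 600.4, 431, 467 and 548 in the perivenous zone of these mice, against 1202, 829, 934 and 1017 in the periportal zone. Fgg had 708, 522, 640.3 and 693 in the perivenous zone, against 1254, 972, 1125 and 1247 in the periportal zone. Every mouse was lower in the perivenous zone for each chain, and for none of the chains did the ranges of the zones overlap in this group. The log2 fold changes were -1.01 ± 0.11 for Fgb (adjusted p = 3.13e-06), -0.96 ± 0.11 for Fga (adjusted p = 5.66e-06) and -0.84 ± 0.11 for Fgg (adjusted p = 2.94e-05). In HetKO LFD, Wt HFD and Wt LFD they lay between -1.06 and -0.86, and all were called.

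The fibrinogen genes sit at chr3:83007724-83015056 (Fgg), chr3:83026153-83033627 (Fga) and chr3:83042246-83049863 (Fgb) in GRCm38.p6, with gaps of 11.1 kb between Fgg and Fga and 8.6 kb between Fga and Fgb. Since the 3 genes moved together between zones and diets, their RefSeq promoters of 300 bases (250 before to 50 after the annotated start, 5′ to 3′ on the gene's strand, GRCm38.p6) follow. Capitals mark CTGGGA, the core of interleukin-6 response elements, and GTTAAT, a half-site of the hepatocyte factor HNF1, on either strand (TCCCAG and ATTAAC on the other).
Fga, chr3:83025903-83026202, + strand: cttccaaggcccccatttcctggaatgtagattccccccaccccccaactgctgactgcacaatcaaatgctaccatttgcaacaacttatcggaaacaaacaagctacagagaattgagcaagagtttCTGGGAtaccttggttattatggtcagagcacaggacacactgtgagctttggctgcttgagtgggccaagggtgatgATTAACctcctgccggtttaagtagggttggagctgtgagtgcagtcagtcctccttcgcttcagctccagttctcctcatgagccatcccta
Fgb, chr3:83049814-83050113, - strand: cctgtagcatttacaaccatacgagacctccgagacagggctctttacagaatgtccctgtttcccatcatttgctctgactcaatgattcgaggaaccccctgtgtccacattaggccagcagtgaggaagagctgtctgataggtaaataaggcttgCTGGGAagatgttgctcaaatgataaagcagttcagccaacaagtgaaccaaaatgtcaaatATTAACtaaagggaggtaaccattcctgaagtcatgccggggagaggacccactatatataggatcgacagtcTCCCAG
Fgg, chr3:83007474-83007773, + strand: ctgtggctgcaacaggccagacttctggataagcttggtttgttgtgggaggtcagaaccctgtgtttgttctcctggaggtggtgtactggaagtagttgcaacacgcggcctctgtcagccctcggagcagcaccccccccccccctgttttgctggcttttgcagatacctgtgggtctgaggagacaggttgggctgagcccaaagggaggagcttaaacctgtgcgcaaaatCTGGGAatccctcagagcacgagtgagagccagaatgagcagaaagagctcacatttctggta
Counted from the annotated start, CTGGGA begins at position -121 in Fga, -91 in Fgb and -13 in Fgg, and lies on the other strand at position 45 in Fgb. GTTAAT lies on the other strand at position -43 in Fga and -29 in Fgb, and is not in the window of Fgg. Of the 28 members with a promoter in the RefSeq table, 16 (57.1%) hold CTGGGA on either strand, against 31.8% of all 32851 promoters of this length, and 9 (32.1%) hold GTTAAT, against 7.1%. TTNNGNAAT, a pattern of C/EBP factors, is in 9 members (32.1%), against 11.5% of all promoters, and TATAAA in 3 (10.7%), against 13.6%. Among members called lower in the perivenous zone of all 4 groups, 7 had a promoter. CTGGGA is in 4 of these 7 and GTTAAT in 3. Whether any of these patterns bears on the steps between zones or diets was not tested. For 11 of the 28 members the table's start lay 22 to 7922 bases inside the gene's annotated span, and 2 members had 2 windows. All patterns were sought on both strands, the marked matches do not overlap, and a match is a run of letters and not a site shown to be bound.

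The other coagulation members called lower in the perivenous zone were inhibitors, a contact factor and vitamin K-dependent factors. Serpinf2, which encodes the plasmin inhibitor alpha-2-antiplasmin, had 142, 122, 146 and 174 in the perivenous zone of HetKO HFD mice, against 237, 204, 294 and 275 in the periportal zone (-0.79 ± 0.12, adjusted p = 9.41e-05). Kng1, the gene of high-molecular-weight kininogen and source of bradykinin, had 296, 285, 246 and 253, against 461, 435, 377 and 379 in the periportal zone (-0.61 ± 0.11, adjusted p = 0.00146). Serpinf2 was called lower in all 4 groups and Kng1 in every group but Wt HFD, where its log2 fold change was -0.41 (adjusted p = 0.221). F10, the gene of factor X that turns prothrombin into thrombin, was called lower in HetKO HFD (-0.46), HetKO LFD (-0.53) and Wt LFD (-0.65). F7, the factor VII that starts clotting with tissue factor, and Serpinc1, which encodes antithrombin, were called lower in HetKO LFD (-0.45 and -0.41) and in no other group. F2, Serpinc1 and Plg, the genes of prothrombin, antithrombin and plasminogen, were lower in the perivenous zone of 16 of 16 mice, but by little. Their log2 fold changes were -0.36 to -0.23 for F2, -0.44 to -0.34 for Serpinc1 and -0.35 to -0.17 for Plg. F9, F11, F12, Klkb1, Proc, Pros1, F5 and F13b were not called in any group, with log2 fold changes of -0.30 (F9, HetKO HFD) to 0.43 (F5, Wt LFD).

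Among complement members, the lower perivenous values were those of C3, of C8a and C9 of the pore, and of the regulators Cfi and Vtn. C3, on which all routes of complement meet, had 629, 419, 474 and 550.0 in the perivenous zone of HetKO HFD mice, against 1163, 857, 977 and 840.4 in their periportal zone. C9, whose product polymerizes to form the pore, had 70.2, 76.3, 89.4 and 140.2 in the perivenous zone, against 159.7, 147, 176 and 226 in the periportal zone. In both genes each mouse was lower in the perivenous zone, with -0.89 ± 0.12 for C3 (adjusted p = 2.68e-05) and -0.94 ± 0.12 for C9 (adjusted p = 1.36e-05). C8a, the gene of the C8 alpha chain, had 73.9, 74.7, 63.7 and 119 in the perivenous zone, against 156, 177, 100.3 and 186 in the periportal zone (-0.90 ± 0.13, adjusted p = 5.13e-05). Cfi, a protease that inactivates C3b and C4b, had 112, 99.02, 111 and 109.6, against 183, 193, 181 and 210.3 in the periportal zone (-0.82 ± 0.12, adjusted p = 5.20e-05). Vtn, which encodes vitronectin, an inhibitor of the forming pore, had 144, 107, 108 and 135, against 198, 210.5, 240.4 and 265 in the periportal zone (-0.89 ± 0.13, adjusted p = 6.35e-05). For C3, C9, Cfi and Vtn the call held in all 4 groups, with the largest step in C9 of Wt LFD mice, -1.21. C8a missed the call in Wt LFD (-0.46, adjusted p = 0.104). C8b, the C8 beta chain, was called lower in both HetKO groups (-0.43 on HFD and -0.47 on LFD), and C2, the protease of the classical and lectin C3 convertase, in HetKO LFD (-0.46).

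C6 ran the other way. C6, the gene of the component that joins C5b to begin the pore, was higher in the perivenous zone in 16 of 16 mice. It had 276, 97.6, 249 and 61.02 in the perivenous zone of HetKO LFD mice, against 167, 54.2, 155 and 45.8 in their periportal zone. In Wt LFD mice it had 84.3, 169.7, 160.1 and 141 in the perivenous zone, against 66.1, 81.7, 105 and 58.4 in the periportal zone. The ranges of the zones overlapped, mice 1 and 3 of HetKO LFD being high in both zones, while each mouse was higher in its perivenous zone. The log2 fold change was 0.67 ± 0.10 in HetKO LFD (adjusted p = 6.93e-04) and 0.82 ± 0.16 in Wt LFD (adjusted p = 0.00400), and was not called in HetKO HFD (0.35, adjusted p = 0.133) or Wt HFD (0.29, adjusted p = 0.462). C6 (chr15:4727067-4804045) and C9 (chr15:6445346-6498825) both encode parts of the pore and lie 1641.3 kb apart on chromosome 15, with opposite steps between the zones. Their promoters, shown because the steps were opposite, are these, with capitals as above.
C6, chr15:4726960-4727259, + strand: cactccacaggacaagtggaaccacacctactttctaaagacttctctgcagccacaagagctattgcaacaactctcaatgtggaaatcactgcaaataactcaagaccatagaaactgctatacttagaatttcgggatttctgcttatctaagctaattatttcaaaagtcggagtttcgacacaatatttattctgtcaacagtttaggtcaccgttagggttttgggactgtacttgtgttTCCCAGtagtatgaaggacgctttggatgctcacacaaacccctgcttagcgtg
C9, chr15:6445096-6445395, + strand: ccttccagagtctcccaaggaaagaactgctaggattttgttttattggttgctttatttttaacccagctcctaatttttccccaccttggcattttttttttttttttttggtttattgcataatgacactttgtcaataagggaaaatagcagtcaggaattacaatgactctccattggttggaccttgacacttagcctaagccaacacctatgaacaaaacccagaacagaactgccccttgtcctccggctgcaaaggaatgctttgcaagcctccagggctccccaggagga
The table's start for C6 lies at position 4727210, 143 bases inside the gene's annotated span, and positions are counted from it. CTGGGA is found once in this window, on the other strand at position -4, and neither CTGGGA nor GTTAAT is in that of C9.

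The lectins and their proteases were not called lower in the perivenous zone. Mbl1 and Mbl2 encode mannose-binding lectins, which recognize microbial sugars. Mbl1 was called higher in the perivenous zone of Wt LFD mice (0.50 ± 0.14, adjusted p = 0.0497), where it had 57.5, 86.6, 82.2 and 67.1, against 46.2, 55.2, 68.1 and 39.1 in the periportal zone. Mbl2 was higher in the perivenous zone in 14 of 16 mice with log2 fold changes of 0.30 to 0.47, none of which was called. Masp1 and Masp2, the proteases that ride on these lectins, C1ra and C1s1, the proteases of C1, and C4b, Cfb, C8g and C4bp were not called in any group, with log2 fold changes of -0.36 (C4b, Wt HFD) to 0.29 (C4bp, Wt LFD).

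**Figure D2:**
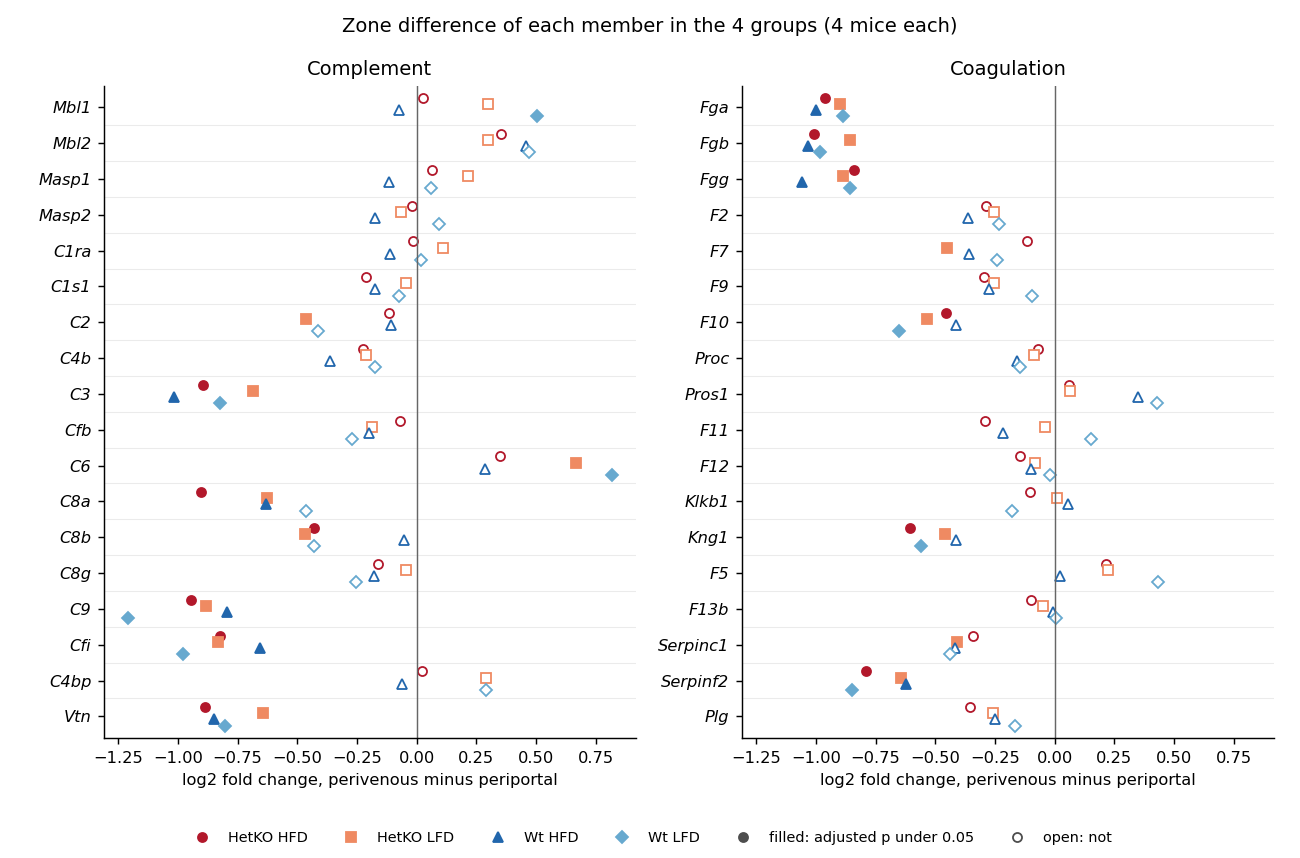
Log2 fold change between zones (perivenous minus periportal) of each of the 36 members in the 4 groups, complement and coagulation apart, with filled symbols for an adjusted p under 0.05. The fibrinogen genes, C3, C9, Cfi, Vtn and Serpinf2 lie below 0 and filled in all 4 groups, while C6 lies above 0 in all 4.

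By count, 12, 15, 9 and 10 members were called lower in the perivenous zone of HetKO HFD, HetKO LFD, Wt HFD and Wt LFD mice, beside 2.29%, 3.34%, 1.19% and 2.84% of all genes tested. These were 6, 7, 5 and 4 of 18 complement and 6, 8, 4 and 6 of 18 coagulation members. All members but C8b and Pros1 were above the LOQ in at least 48 AOIs, as were 2908 genes in all. Among these 2908 genes the shares called lower were 6.4%, 7.98%, 3.75% and 6.81%. Higher calls numbered 0, 1, 0 and 2, beside 2.54%, 3.63%, 0.705% and 2.65% of all genes. Over the 16 mice, 14 members were lower in the perivenous zone of every mouse, 5 of complement and 9 of coagulation, beside 2.2% of all genes tested, and C6 alone was higher in every mouse, beside 1.63%. The median log2 fold change was -0.14, -0.12, -0.18 and -0.21 over complement and -0.29, -0.26, -0.32 and -0.21 over coagulation members, beside 0.03, 0.00, -0.01 and 0.01 over all genes. Without mouse Wt HFD 1 or mouse Wt HFD 2, 5 members were called lower in Wt HFD in place of 9. Scaled to nuclei in place of the third quartile, 14 members were called higher in the perivenous zone of HetKO HFD mice and none lower, and the median of all genes moved to 0.73 there, so the directions above are relative to the other genes of an AOI. With the negative probe subtracted from every value, 0, 1, 0 and 0 members were called in the 4 groups, with medians of -0.32, -0.27, -0.46 and -0.26 over members, beside -0.09, -0.06, -0.12 and -0.16 over all genes.

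General hepatocyte and macrophage genes moved with the zones as well. Of 9 hepatocyte markers, 5, 4, 5 and 4 were called lower in the perivenous zone, with albumin (Alb) at -1.30 in HetKO HFD and -1.12 in Wt LFD. Of 9 tested Kupffer cell markers, 1, 5, 0 and 5 were lower, their sum over 10 genes being 434 to 544 in the perivenous and 536 to 754 in the periportal zone of HetKO LFD mice, and 0 of the 10 were at 0 in every AOI. Acute-phase genes outside the members were lower for 7, 7, 9 and 5 of 15. Their part in the members' results was not tested, and in these areas fewer hepatocytes and less RNA per hepatocyte cannot be told apart.

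Other genes of the pathways were also lower in part in the perivenous zone, in counts to be read against the shares of all genes called lower (2.29%, 3.34%, 1.19% and 2.84%). Of 21 other complement genes tested, 3, 7, 2 and 5 were lower in the perivenous zone. Hc, which encodes C5, was lower in each group, with log2 fold changes of -0.90 to -0.64. Of 17 other coagulation genes, 2, 3, 2 and 1 were lower, and Serpind1, the gene of heparin cofactor II, was lower in each group (-0.71 to -0.49). Of 15 liver transcription factors and receptors that act on these genes, only Foxa3 was called, in Wt HFD (-0.65) and Wt LFD (-0.59).

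**Figure D3:**
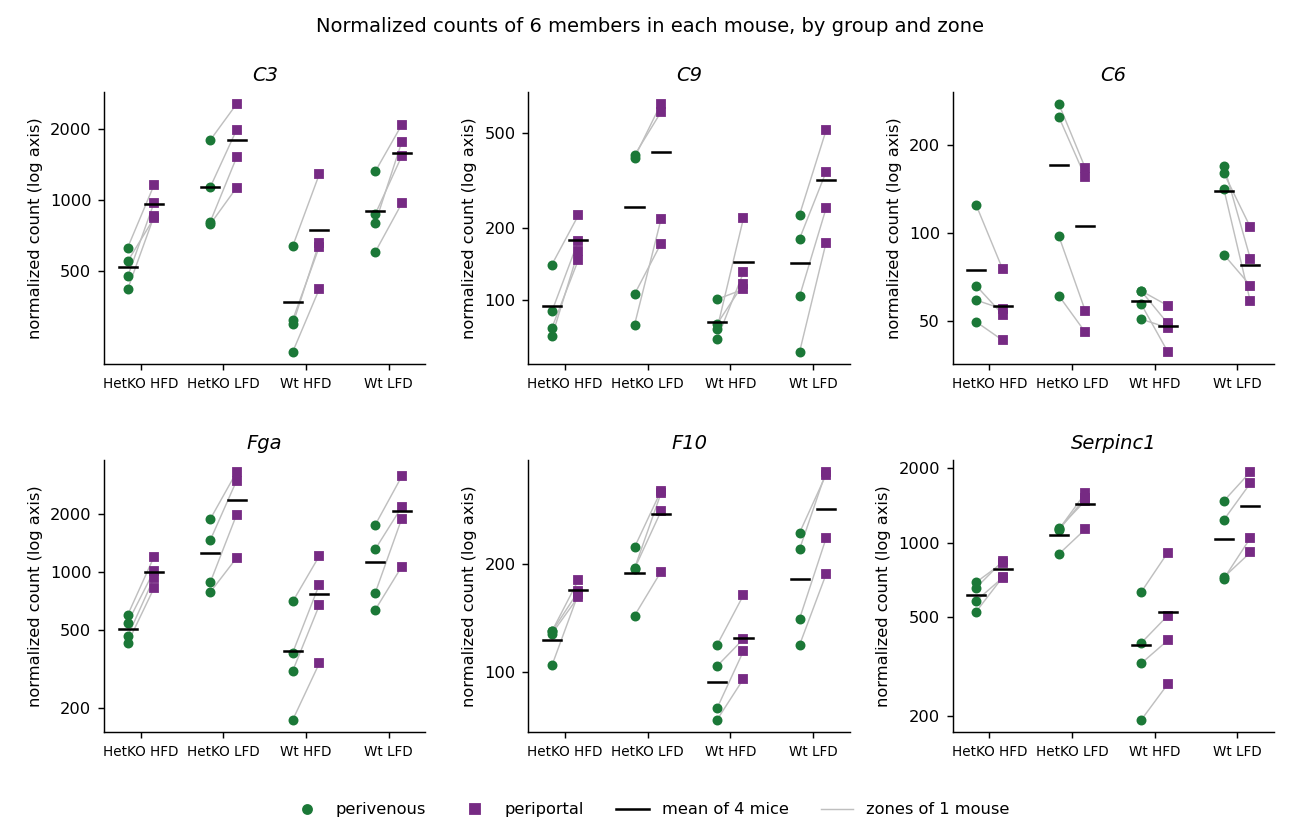
Normalized counts (log axis) of C3, C9, C6, Fga, F10 and Serpinc1 in every mouse, by group, with perivenous left of periportal bars at the mean of 4 mice and lines joining the zones of a mouse. C3, C9, Fga, F10 and Serpinc1 are lower in the perivenous zone of each mouse and C6 is higher in each.

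Most members were lower in mice fed the HFD, in both genotypes and both zones. In HetKO mice, 22 of 36 were called lower on HFD in the periportal zone and 25 in the perivenous zone, beside 5.19% and 9.74% of all genes tested. In Wt mice the counts were 30 and 29, beside 12.7% and 12.3%. No member was called higher in any of these comparisons, beside 3.63%, 12.4%, 15.4% and 10.2% of all genes. Among the 2908 better-detected genes the shares lower were 13.1%, 20.8%, 26.8% and 28.3%. Of these calls, complement made up 8, 11, 16 and 14, and coagulation 14, 14, 14 and 15.

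The inhibitors and the fibrinolysis genes had some of the smallest p-values. Serpinc1, which encodes antithrombin, had 692, 582, 657 and 527 in the perivenous zone of HetKO HFD mice, against 1125, 898, 1140.2 and 1129 in HetKO LFD mice (-0.80 ± 0.13, adjusted p = 0.00461). Plg, the gene of plasminogen, had 309, 236, 262 and 315 in HetKO HFD mice, against 608, 434, 683 and 433 in HetKO LFD mice there (-0.93 ± 0.16, adjusted p = 0.00554). Neither gene's groups overlapped. For these and later genes named for a small p, the comparison shown is that of the smallest p, so groups without overlap there add no support. Over all genes, groups did not overlap, with HFD lower, for 9.82% in HetKO perivenous and 7.82% in Wt periportal. In Wt mice the log2 fold changes were -1.50 periportal and -1.48 perivenous for Serpinc1, and -1.39 and -1.48 for Plg. Serpinf2 was lower in all 4 comparisons as well (-1.29 to -0.75).

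Most contact factors were lower on HFD. Kng1 had 296, 285, 246 and 253 in the perivenous zone of HetKO HFD mice, against 536, 429, 681 and 570.0 in HetKO LFD mice (-1.02 ± 0.14, adjusted p = 0.00224). F12, the factor XII that starts the contact route, had 167, 146, 165 and 170.0 in HetKO HFD mice, against 282, 226, 310.0 and 246 in HetKO LFD mice in that zone (-0.71 ± 0.13, adjusted p = 0.00558). Klkb1, which encodes plasma prekallikrein, had its smallest p in the periportal zone of Wt mice, at 72.1, 51.3, 48.3 and 55.3 on HFD, against 94.9, 111, 124 and 131 on LFD (-1.02 ± 0.18, adjusted p = 0.00552). Each of these 3 genes separated its groups in the comparison given, chosen for its small p. In the periportal zone of Wt HFD mice Klkb1 was above the LOQ in 3 of 12 AOIs. Its neighbour F11, the factor XI gene 4.6 kb away, was called lower in 1 comparison, the perivenous zone of Wt mice (-0.69, adjusted p = 0.0261), with -0.04, -0.29 and -0.32 in the periportal and perivenous zones of HetKO mice and the periportal zone of Wt mice.

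The fibrinogen genes and most vitamin K-dependent factors were also lower on HFD. Fga averaged 996 ± 158 on HFD and 2354 ± 958 on LFD in the periportal zone of HetKO mice, and 769.6 ± 364 and 2059.8 ± 846 in that of Wt mice (SD, n = 4 each). The log2 fold changes of Fga, Fgb and Fgg lay between -1.58 (Fga, Wt perivenous) and -0.99 (Fgb, HetKO periportal), and all 12 were called. F2, F10 and Proc, the genes of prothrombin, factor X and protein C, were lower in all 4 comparisons, with -1.30 to -0.66 for F2, -1.16 to -0.60 for F10 and -0.93 to -0.62 for Proc. F9, the factor IX gene, was called lower in the perivenous zone of Wt mice (-0.61, adjusted p = 0.0407). F7 and Pros1 were not called. F7 had log2 fold changes of -0.51 to -0.18 and Pros1, the gene of protein S, of -0.03 to 0.08, with values of 20.6 to 45.3 in the periportal zone of Wt HFD mice, close to the negative probe there (21.2 to 36.6). F5 was lower in all 4 comparisons (-0.93 to -0.50) and F13b, the carrier subunit of fibrin-stabilizing factor XIII, in 3, missing the call in the perivenous zone of Wt mice (-0.56, adjusted p = 0.0699).

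In complement, Masp2, C1ra, C4b, C3 and C4bp were lower on HFD in all 4 comparisons, and Masp1 and C1s1 in every one but the periportal zone of HetKO mice. Masp2, which cleaves C4 and C2 on bound lectins, had 159, 101, 94.3 and 85.5 in the periportal zone of Wt HFD mice, against 185, 229, 247 and 261 in Wt LFD mice (-1.11 ± 0.21, adjusted p = 0.00640). C1s1, the C1 protease, had 93.8, 107, 86.8 and 86.5 in the perivenous zone of HetKO HFD mice, against 148, 121, 160.2 and 156 in HetKO LFD mice (-0.64 ± 0.13, adjusted p = 0.00645). C4bp, a cofactor for breakdown of C4b, had 184, 170.3, 151 and 245, against 392, 256, 456 and 376 in HetKO LFD mice of that zone (-0.97 ± 0.18, adjusted p = 0.00605). The groups of these 3 genes did not overlap in the comparison given. C3 averaged 959.6 ± 149 on HFD and 1805 ± 619 on LFD in the periportal zone of HetKO mice, and 749 ± 374 and 1592 ± 473 in that of Wt mice (SD, n = 4 each), and was called lower in all 4 comparisons (-1.35 to -0.86). C1ra and C4b were too, with -1.12 to -0.66 and -1.22 to -0.94.

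The pore inhibitor Vtn and the C8 gamma chain C8g were also called lower in all 4 comparisons, while C9 and C6 varied widely between mice. Vtn had 144, 107, 108 and 135 in the perivenous zone of HetKO HFD mice, against 295, 212, 378 and 194 in HetKO LFD mice (-1.08 ± 0.19, adjusted p = 0.00554). C8g had 111, 102, 87.7 and 82.9 in the periportal zone of Wt HFD mice, against 147, 195, 191 and 237 in Wt LFD mice (-0.99 ± 0.19, adjusted p = 0.00620). The groups of neither gene overlapped in these comparisons. C9 had 159.7, 147, 176 and 226 in the periportal zone of HetKO HFD mice, against 659, 171, 609 and 216 in HetKO LFD mice, a log2 fold change of -1.002 ± 0.34 that was not called (adjusted p = 0.0701). C6 in the perivenous zone had 65.97, 58.9, 49.6 and 124 in HetKO HFD mice, against 276, 97.6, 249 and 61.02 in HetKO LFD mice (-1.02 ± 0.39, adjusted p = 0.0729). In both genes HetKO LFD mice 1 and 3 were far above mice 2 and 4. The same mice were high in a sum of 16 acute-phase genes outside the members, with 11562 and 20762 in the periportal zone of mice 1 and 3, against 4378 and 6072 in mice 2 and 4, and the part of this in the diet result was not tested. C6 was called lower in Wt mice (-0.65 periportal and -1.19 perivenous), and C9 in the periportal zone of Wt mice (-1.09).

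Some complement members were called on few occasions. Mbl2 was lower on HFD in both zones of Wt mice (-1.09 periportal and -1.10 perivenous) and not called in HetKO mice (-0.29 and -0.24). Mbl1, its paralog, was lower in the perivenous zone of HetKO mice (-0.59, adjusted p = 0.0222), with 0.19 in the periportal zone of Wt mice, not called. C2 was lower in the periportal zone of both genotypes (-0.55 in HetKO and -0.62 in Wt), and Cfi and C8b in both zones of Wt mice, where C8b was above the LOQ in 0 AOIs on HFD. Masp1 and C8a were called lower in 3 comparisons, each missing the periportal zone of HetKO mice. Cfb, the protease of the alternative route 0.1 kb from C2, was not called, with log2 fold changes of -0.49 to -0.36.

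**Figure D4:**
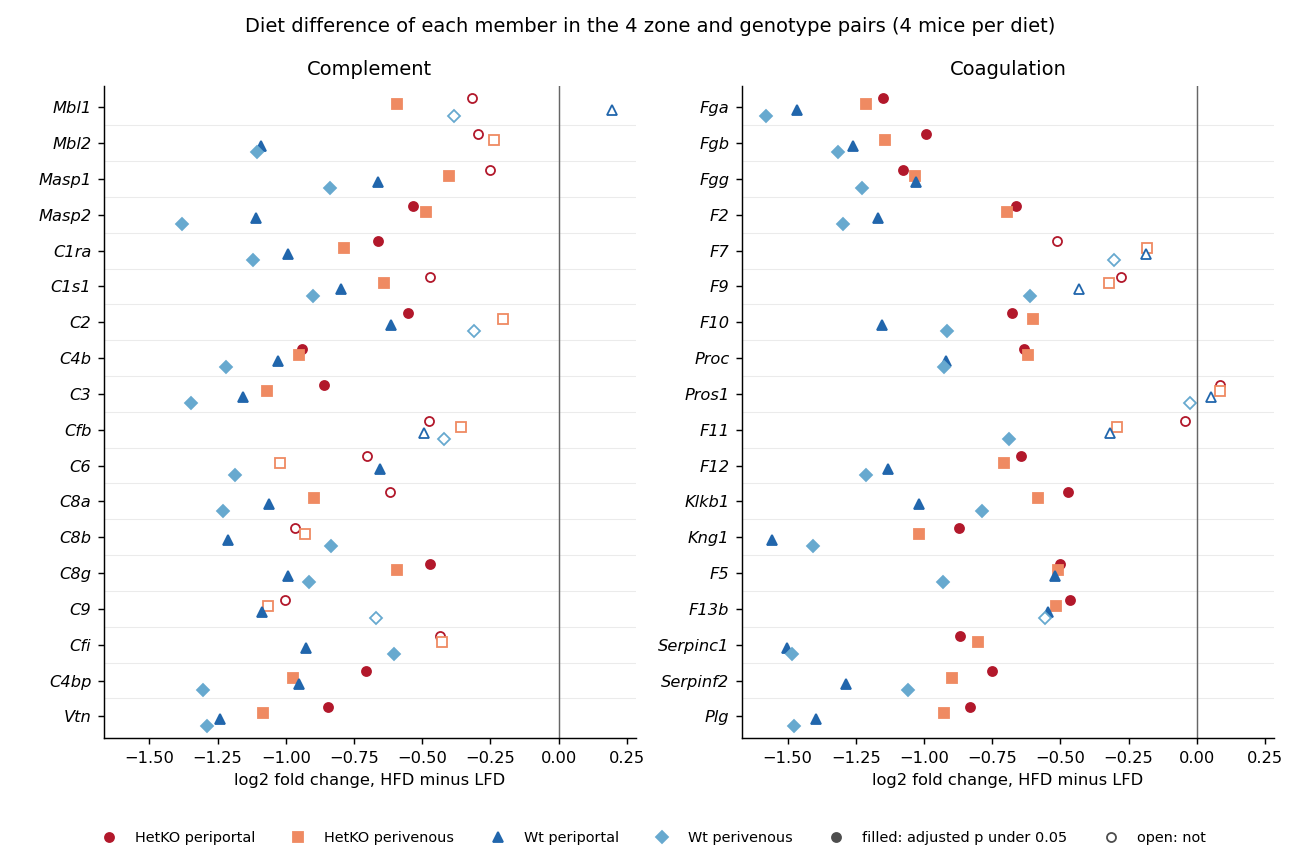
Log2 fold change between diets (HFD minus LFD) of each of the 36 members in both zones of HetKO and Wt mice, complement and coagulation apart, with filled symbols for an adjusted p under 0.05. Nearly all points lie below 0, and Pros1 lies close to 0 in each comparison (-0.03 to 0.08).

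In all, 20 members were called lower on HFD in each of the 4 comparisons, 7 of complement and 13 of coagulation. The share of all genes called lower in all 4 was not counted. In single comparisons it was 5.19%, 9.74%, 12.7% and 12.3%. The groups did not overlap, with HFD lower, for 17, 23, 14 and 15 members in the periportal and perivenous zones of HetKO mice and the periportal and perivenous zones of Wt mice, beside 7.94%, 9.82%, 7.82% and 9.55% of all genes. The median over complement members was -0.59, -0.71, -0.99 and -1.01, and over coagulation members -0.65, -0.66, -1.08 and -0.99, beside 0.02, 0.05, 0.11 and 0.09 over all genes. The number of calls changed with single mice. In the periportal zone of HetKO mice it was 1 without mouse HetKO LFD 1, 5 without HetKO LFD 3, 12 without HetKO LFD 4, 8 without HetKO HFD 2, 6 without HetKO HFD 3 and 11 without HetKO HFD 4, in place of 22. In the periportal zone of Wt mice it was 13, 19 and 15 without mouse Wt HFD 2, 3 or 4 and 13 and 18 without mouse Wt LFD 3 or 4, in place of 30. In the perivenous zone of HetKO mice it was 20 to 29 whichever mouse was left out, in place of 25. In the perivenous zone of Wt mice it was 6, 7 and 16 without mouse Wt HFD 2, 3 or 4 and 4 and 7 without mouse Wt LFD 3 or 4, in place of 29. The median over members stayed below 0 whichever mouse was left out, at -0.78 to -0.53 in the periportal and -0.76 to -0.60 in the perivenous zone of HetKO mice, and -1.18 to -0.87 and -1.14 to -0.87 in those zones of Wt mice.

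The diets also differed in the general hepatocyte markers and the background. Of 9 hepatocyte markers, 4 and 8 were lower on HFD in the periportal and perivenous zones of HetKO mice and 8 and 8 in those of Wt mice, with medians of -0.53, -0.71, -1.24 and -1.39. Of 9 Kupffer cell markers, 0, 0, 1 and 0 were lower and 1, 1, 0 and 2 higher. The hepatocyte markers summed to 39913 to 59200.2 in the periportal zone of HetKO HFD mice and 60805 to 80686 in that of HetKO LFD mice, and 11046 to 45999.6 and 51354 to 94963 in Wt HFD and Wt LFD mice. The negative probe was at 20.7 to 26.04 and 16.7 to 21.4 in the periportal zone of HetKO HFD and HetKO LFD mice and at 21.2 to 36.6 and 12.1 to 21.998 in that of Wt HFD and Wt LFD mice, so the background, which is part of every value, was higher on HFD in most mice. The part of these in the members' result was not tested, and the slide set cannot be told apart from the diet. With the negative probe subtracted, the median over all genes moved to -0.33, -0.40, -0.98 and -0.98 and that over members to -0.82, -0.95, -1.54 and -1.66, with calls for 0, 14, 15 and 14 members. Scaled to nuclei, 1, 0, 16 and 0 members were called lower. The medians were then -1.50, -0.81, -1.10 and -1.10 over members, beside -0.81, -0.09, 0.03 and -0.02 over all genes.

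Other genes of the pathways fell in part on HFD. The counts are to be read against all genes, of which 5.19%, 9.74%, 12.7% and 12.3% were called lower. The shares called higher were 3.63%, 12.4%, 15.4% and 10.2%, and the higher counts of complement genes lay near or below these. Of 21 other complement genes, 5, 6, 7 and 8 were lower and 1, 3, 1 and 2 higher. Serping1, the inhibitor of C1 and of kallikrein, was lower in all 4 comparisons (-1.52 to -0.89), and so was Clu (-1.18 to -0.71). Cfd, the protease that activates factor B and is best known from fat cells, was higher in all 4 (0.59 to 1.08), and Colec10, a collectin, was higher in the perivenous zone of both genotypes (0.62 in HetKO and 0.68 in Wt). Of 17 other coagulation genes, 6, 10, 9 and 9 were lower, Hrg (histidine-rich glycoprotein) and Serpind1 in each comparison, and F8, which encodes factor VIII and is made by endothelium, was higher in the periportal zone of HetKO mice (0.49, adjusted p = 0.0297). Of 15 transcription factors and receptors, 1, 4, 4 and 4 were lower. Cebpa, a factor of hepatocyte differentiation, was lower in all 4 (-1.37 to -0.50), while Nr1h4, the bile acid receptor, and Hnf4a, a hepatocyte nuclear factor, missed the periportal zone of HetKO mice.

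No member was called in the tests of whether the HFD effect differed between zones or genotypes. The median difference between zones was -0.06 in HetKO and -0.08 in Wt mice over members, beside 0.02 and -0.02 over all genes. In the test of the diet effect between zones, 0 members were called in HetKO mice and 0 in Wt mice, beside 0.0294% and 0.441% of all genes, with 1 and 3 of 36 members at an unadjusted p under 0.05, beside 5.8% and 7.73% of all genes. Mbl1 in Wt mice was the nearest, with a difference of -0.58 (95% interval -0.97 to -0.18, adjusted p = 0.330), from a step between zones of -0.07 on HFD and 0.50 on LFD. C6 had -0.53 in Wt mice (95% interval -0.97 to -0.09, adjusted p = 0.522). In Wt HFD mice Mbl1 was above the LOQ in 3 of 12 periportal and 2 of 12 perivenous AOIs, and C6 in 2 of 12 of each zone. The HFD side of both differences thus lay mostly at background. In the test of the diet effect between genotypes, 0 members were called in either zone, as were 0% of all genes, with 5 of 36 members periportal and 1 perivenous at an unadjusted p under 0.05, beside 10.8% and 5.8% of all genes. The median difference over members was 0.31 periportal and 0.29 perivenous, beside -0.08 and -0.02 over all genes. With the negative probe subtracted it was 0.73 and 0.69, beside 0.59 and 0.53. Masp2 in the perivenous zone had the smallest p there, with a difference of 0.89 (95% interval 0.26 to 1.52, adjusted p = 0.775). Without mouse Wt HFD 1, 1 member was called in each zone, Mbl2 in the periportal (1.06, adjusted p = 0.0358) and Masp2 in the perivenous zone (1.13, adjusted p = 0.0301), both with a smaller step between diets in HetKO than in Wt mice. The share of all genes called without this mouse was not counted for this test, so these calls cannot be set against it. The mouse was also singled out in these same data, so these calls are no independent support.

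Between genotypes, no member was called on either diet. On LFD, 0 of 36 members had an unadjusted p under 0.05 in either zone, beside 3.26% periportal and 1.4% perivenous of all genes, and 0% of all genes tested were called by limma, edgeR called 0 members and DESeq2 0. The median over members was 0.09 periportal and 0.10 perivenous on LFD, with single log2 fold changes of -0.12 (C8g) to 0.33 (Mbl1) in the periportal zone and -0.20 (Pros1) to 0.59 (C9) in the perivenous zone. C9 in the perivenous zone had a 95% interval of -0.49 to 1.67, so differences of more than 2-fold remained possible for such variable genes. Scaled to nuclei, all 36 members were called higher in HetKO LFD mice in the periportal zone, where the median moved to 0.84 over all genes and 0.87 over members. The members thus moved about as far as genes in general, and the share of all genes called under this scaling was not counted.

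On HFD the members were higher in HetKO than in Wt mice on balance, but below the threshold. Of 36 members, 34 periportal and 32 perivenous had positive log2 fold changes, with medians of 0.38 and 0.40 over complement and 0.47 and 0.41 over coagulation members, beside -0.01 and 0.03 over all genes. Of the members, 15 periportal and 14 perivenous had an unadjusted p under 0.05, beside 14.6% and 15% of all genes, the smallest adjusted p being 0.196 and 0.250, while limma called 0% of all genes, with edgeR and DESeq2 also calling 0 members. With the negative probe subtracted, the median over members was 0.81 periportal and 0.73 perivenous, beside 0.61 and 0.64 over all genes, so the members then stood less far above the other genes. Scaled to nuclei, it was 0.41 and 0.75, beside 0.00 and 0.36. Mbl2 had 247, 180.4, 171 and 166 in the periportal zone of HetKO HFD mice, against 177, 99.9, 88.2 and 71.01 in Wt HFD mice (0.88 ± 0.24, adjusted p = 0.196). Masp2 had 191, 188, 161 and 143 in HetKO HFD mice, against 159, 101, 94.3 and 85.5 in Wt HFD mice (0.67 ± 0.20, adjusted p = 0.196). In both, mouse Wt HFD 1 was the highest of its group and lay within the HetKO HFD range.

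The other members with the smallest p-values in this comparison were a regulator and a pore chain of complement, the lectin protease Masp1 and factors of the contact and common routes. Cfi had 183, 193, 181 and 210.3 in the periportal zone of HetKO HFD mice, against 186, 137, 121 and 87.5 in Wt HFD mice (0.58 ± 0.20). C8g had 113, 133, 127 and 132 in HetKO HFD mice, against 111, 102, 87.7 and 82.9 in Wt HFD mice (0.40 ± 0.15). Masp1 in the perivenous zone had 80.5, 74.2, 74.97 and 67.5 in HetKO HFD mice, against 72.8, 43.4, 63.8 and 39.8 in Wt HFD mice (0.49 ± 0.19). Of these, C8g separated the genotypes, while Cfi and Masp1 of mouse Wt HFD 1 lay within the HetKO HFD range. Klkb1 had 74.3, 83.1, 78.6 and 93.1 in the periportal zone of HetKO HFD mice, against 72.1, 51.3, 48.3 and 55.3 in Wt HFD mice (0.53 ± 0.17). Kng1 had 461, 435, 377 and 379 in HetKO HFD mice, against 458, 220.4, 226 and 143 in Wt HFD mice (0.78 ± 0.26). Klkb1 had no overlap between the genotypes, while Kng1 of mouse Wt HFD 1 lay near the top of the HetKO HFD range. F10 had 180.5, 165, 168 and 162 in the periportal zone of HetKO HFD mice, against 164, 124, 114 and 95.7 in Wt HFD mice (0.47 ± 0.17). F12 had 200.4, 182, 170.4 and 163 in HetKO HFD mice, against 201, 90.5, 122 and 77.2 in Wt HFD mice (0.64 ± 0.24). F5 in the perivenous zone had 59.3, 56.8, 52.04 and 67.5 in HetKO HFD mice, against 53.5, 37.8, 43.5 and 41.2 in Wt HFD mice (0.45 ± 0.15). In F10 and F5 mouse Wt HFD 1 lay within the HetKO HFD range and in F12 just above it. The adjusted p of these 8 genes lay between 0.201 and 0.264. With HetKO higher, the groups did not overlap for C8g, F11 and Klkb1 in the periportal zone and Cfb in the perivenous zone, beside 2.26% and 3.26% of all genes. In Wt HFD mice, C8g, F11 and Klkb1 were above the LOQ in 12, 2 and 3 of 12 periportal AOIs. Cfb, F5 and Masp1 were above it in 0, 1 and 4 of 12 perivenous AOIs there. Apart from C8g, the Wt HFD values of these genes thus lay mostly at background.

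Leaving out mouse Wt HFD 1 changed the genotype result on HFD. Without it, 24 members were called higher in HetKO mice in the periportal zone, 13 of complement and 11 of coagulation, and 25 in the perivenous zone, 11 and 14, beside 14% and 15.7% of all genes. Mbl2 then had a log2 fold change of 1.14 ± 0.18 in the periportal zone (adjusted p = 2.67e-04), Kng1 1.09 ± 0.18 and Serpinc1 1.04 ± 0.19. In the perivenous zone Masp2 had 1.07 ± 0.16 (adjusted p = 1.80e-04), Serpinc1 1.07 ± 0.19 and C3 0.89 ± 0.16. This mouse was singled out in these same data. It was the highest Wt HFD mouse in each member given by mouse for this comparison. Leaving it out thus widened their difference in advance, and these p-values are no independent support. Of all mice left out in turn it gave the most calls, and others gave as few as 0. Other measures moved with this result. In the periportal zone, the LOQ was passed by 34.5 to 45.9% of targets in HetKO HFD mice and 12.7 to 17.6% in Wt HFD mice 2 to 4. The negative probe was at 20.7 to 26.04 and 29.3 to 36.6, and the sum of 9 hepatocyte markers at 39913 to 59200.2 and 11046 to 27617 in the same order. Their part in the difference was not tested.

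**Figure D5:**
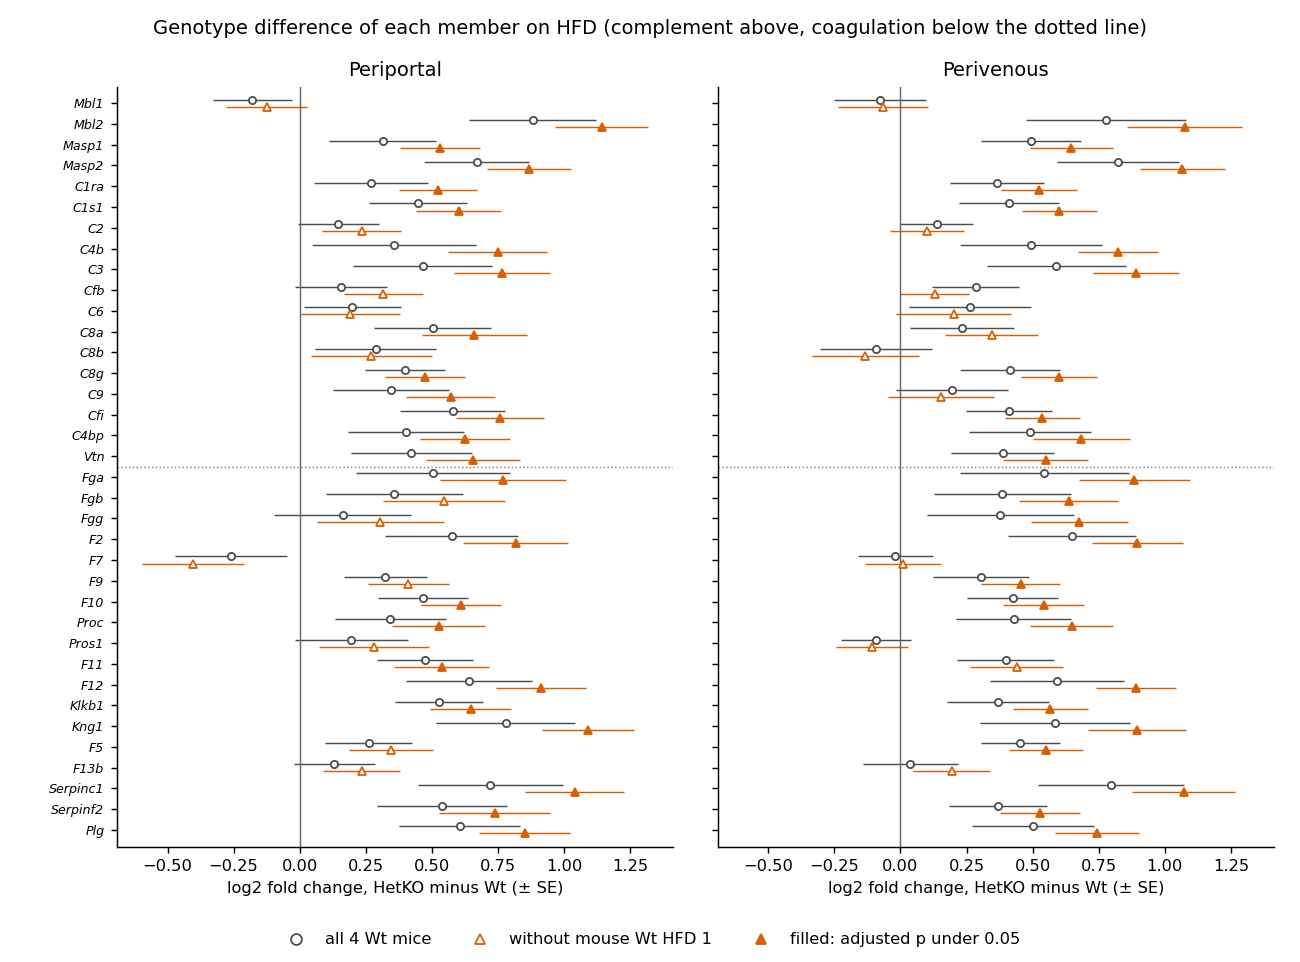
Log2 fold change between genotypes on HFD (HetKO minus Wt, ± SE) of each of the 36 members in both zones, with all 4 Wt mice and without mouse Wt HFD 1, and filled symbols for an adjusted p under 0.05. With all mice 0 symbols are filled, and without mouse Wt HFD 1 24 are filled for the periportal and 25 for the perivenous zone.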

How the data were processed

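Liver RNA of 16 male mice was measured on GeoMx in 96 AOIs. The authors turned the tag reads into deduplicated counts (GeoMx NGS Pipeline, version 2.3.3.10; the labels name build mm10). The deposited values are a normalized signal, with the third quartile at 60.2 in each AOI, although the study's methods name a normalization to nuclei. The deposited AOI table also gave counts of nuclei and of deduplicated reads, sequencing saturation as a percent (64.1 to 91.6) and the LOQ, which is set from the negative probe. Deduplicated reads ranged from 60874 to 1772443 per AOI, nuclei from 118 to 788. Divided by each AOI's scale, at least 99.9% of targets were whole within 0.01, which gave recovered reads. Of the deposited columns, 14 per-sample columns were not used. Of 4560 pairs of AOIs, 0 were identical.

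The planned unit was counts. The values turned out to be scaled, so the design's second choice was taken, limma 3.58.1 (R 4.3.3) on the mean log2 of value plus 1 of each mouse's 3 AOIs in a zone, over the genes above the LOQ in at least 10 AOIs. Zones were compared with the mouse as a block, and diets and genotypes within a zone, using only the groups compared. p-values were adjusted by Benjamini-Hochberg over 6805 genes. Per-mouse values are given, in each kind of comparison, for the 5 complement and 5 coagulation members with the smallest adjusted p, and for C6, C9 and Mbl1, chosen after their values were seen, and others by range. The members and all gene lists were chosen with earlier results of these data known. Mouse numbers name different animals and pair nothing across groups. Per-sample tests cover the spread between mice, and the counting error within an AOI is not separate. Alternatives were edgeR 4.0.16 and DESeq2 1.42.0 on recovered reads, other detection filters, a pseudocount of 10, reads per nucleus, values less the negative probe, mouse number as a block, and leaving out each mouse or, chosen after seeing the data, the shallowest AOI. The fits were tested on simulated data. Promoters came from RefSeq (GRCm38.p6), which listed 28 of the 36 members.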

Additional observations from a re-analysis of the deposited data

Results flagged for a closer look

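In 5 of 176 groups of 4 mice tested, a member's highest or lowest mouse lay far from the others by the ratio of its gap to the group's range. Chance gives about 1 in 20 such groups. C8a in the perivenous zone of Wt HFD mice had a ratio of 0.906, with 86.6, 62.9, 61.8 and 64.1 normalized counts in mice 1 to 4, the highest in mouse Wt HFD 1. C8a was above the LOQ in 5 of 12 AOIs there. F10 in the perivenous zone of HetKO HFD mice had a ratio of 0.924, with 129.9, 104, 129.7 and 128. The lowest was mouse 2. In HetKO LFD mice 1 to 4, C8g in the periportal zone had 191, 141, 185 and 186 (ratio 0.865), lowest in mouse 2. Klkb1 in their perivenous zone had 119.9, 120.3, 124 and 90.9 (ratio 0.881), lowest in mouse 4, and Serpinc1 1125, 898, 1140.2 and 1129 (ratio 0.937), lowest in mouse 2.

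C4bp was lower in the perivenous zone of all 4 Wt HFD mice and higher in that of all 4 Wt LFD mice. The steps between zones differed by 0.354 on the log2 scale, -0.06 in Wt HFD and 0.29 in Wt LFD, and the difference was not called in the test of the diet effect between zones (adjusted p = 0.652).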

How the results depend on the processing

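Diet is confounded with the slide set, 4 mice make a group, and C8b and Pros1 were not above the LOQ in any AOI of Wt HFD mice, so their values there cannot be told from the background. Mbl1, Masp1, C1ra, C2, Cfb, C6, F7, F9, F11, Klkb1, F5 and F13b lay mostly at background in that group, as did C1s1 and C8a in its perivenous zone. Leaving out the shallowest AOI, no detection filter, a stricter one and a pseudocount of 10 left every count of called members within 1.5 times. So did edgeR (17, 17, 10 and 18 members between zones in HetKO HFD, HetKO LFD, Wt HFD and Wt LFD, and 26, 30, 26 and 28 between diets in HetKO periportal, HetKO perivenous, Wt periportal and Wt perivenous) and DESeq2. With reads per nucleus, 14 members were called between zones in HetKO HFD, all higher in the perivenous zone, and 0 in HetKO LFD, Wt HFD and Wt LFD. Kng1 had 0.12 between zones in HetKO HFD. Between diets 1, 0, 16 and 0 were called, and between genotypes on LFD in the periportal zone 36, all higher in HetKO, among them C8g (0.66), Masp1 (0.68), Klkb1 (0.76) and F10 (0.77), which were below 0 with the deposited scaling. This scaling moved the median of all genes to 0.73 between zones in HetKO HFD, -0.81 between diets in HetKO periportal and 0.84 between genotypes on LFD in the periportal zone, beside 0.50, -1.50 and 0.87 over members, so relative to all genes the members' median kept its direction between zones and diets. With the negative probe subtracted, 0, 1, 0 and 0 members were called between zones and 0, 14, 15 and 14 between diets. For these changes the cause was not tested. The shares of all genes called with reads per nucleus or with the negative probe subtracted were not counted.

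Mouse numbers do not pair mice across groups. The deviations of same-numbered mice correlated between -0.59 and 0.48. With a replicate block, 16 and 26 members were called between diets in HetKO mice and 19 and 1 in Wt mice, in the periportal and perivenous zones, and 3 (Kng1, Masp2 and Mbl2) and 4 (F2, Masp2, Mbl2 and Serpinc1) between genotypes on HFD, all higher in HetKO. The zones of a mouse are truly paired, and with no replicate block 11, 1, 0 and 1 members were called between zones. The shares of all genes called in these fits were not counted, so whether these calls are particular to the members cannot be told.

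Leaving out a mouse gave 10 to 11, 12 to 16, 5 to 9 and 9 to 12 called members between zones, 1 to 29, 20 to 29, 13 to 32 and 4 to 30 between diets, 0 to 24 and 0 to 25 between genotypes on HFD and 0 on LFD. For the diet effect between zones it gave 0, and for that between genotypes 0 to 1 in each zone.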
